A study of Mus musculus with 45 samples.

Results

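The comparison described here is that of 3 B cell-derived lines of mouse induced pluripotent stem cells (iPSCs) at passage 16 with 3 lines of the same origin at passage 4. Its 6 arrays are all those labelled as B cell iPSC at these passages in the table of passages 4, 6 and 16, which holds 33 of the 45 arrays of the series. The lines were derived with a secondary reprogramming system from splenic B cells of 1 animal, called mouse 2, and each array measured 1 clone. Every culture, at either passage, was kept in medium with serum and LIF, the cytokine that maintains mouse pluripotent cells, on irradiated embryonic fibroblasts, and was preplated after trypsin to take these feeder cells away before RNA was extracted. The labels name no strain, age, sex, reprogramming factor or array date. For reference, the same table holds lines of mouse 2 from tail tip fibroblasts (TTF), T cells and granulocytes at passages 4 and 16 (3 clones each, 18 arrays), and granulocyte lines of a different animal, mouse 1, at the same passages (3 clones each). It also holds 3 clones labelled SMP derived iPSC, from mouse 1 at passage 6. They enter no comparison below but share in the estimate of spread.

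Reprogrammed cells carry, at low passage, remnants of the expression and the DNA methylation of the cell they came from, and these are known to fade as lines are cultured. Pluripotent mouse cells keep a network around Pou5f1, Nanog and Sox2 and tend to differentiate spontaneously in serum, often to extraembryonic endoderm. Cultures on feeders also carry over some fibroblast RNA, rich in collagens and other matrix transcripts, in an amount that depends on how completely the feeders were removed.

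All values are log2 levels from RMA, a method that summarises the probes of a probe set, and a difference of 1 is a factor of 2 on the linear scale. The 11807 genes with a probe set paired to a single symbol were tested with limma over all 33 arrays, and a gene was called when its Benjamini-Hochberg adjusted p was under 0.05. Errors of changes are standard errors (SE) from this model with n = 3 clones a passage, and every p below that is not called exact is its two-sided adjusted p. The clones come from 1 animal, so the p-values cover the spread between clones, and the number of arrays limits the precision. The 3 arrays of a passage correlated with each other at 0.990 to 0.996 (passage 4) and 0.985 to 0.992 (passage 16) over all genes, and with those of the other passage at 0.971 to 0.987.

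The label of pluripotent cells was borne out by the markers. Pou5f1, Nanog and Sox2, with Esrrb and Zfp42, lay between 11 and 12.3 on all 6 arrays, above the 75th percentile of all genes (9.08). The defining markers of the other cell types of the study were low: those of B cells lay between 3.08 and 6.83, those of T cells between 3.42 and 4.49 and those of granulocytes between 3.39 and 4.88, where the median gene was at 6.98 and the 25th percentile at 4.67. The 4 markers of fibroblast feeders covered 4.76 to 8.31 at passage 4 and 4.65 to 9.92 at passage 16, and 3 of them (Col1a1, Col3a1 and Postn) rose and Dcn did not pass the test. Those of endoderm covered 4.89 to 10.2. In a mixed culture, fewer cells of a type and less RNA per cell cannot be told apart.

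A control measure of the labelled RNA moved with passage in these lines, and the values touch all results. The 5′ and 3′ control probe sets of Gapdh and beta-actin give a measure of how far labelled RNA reached from the 3′ end, and the 5′ level minus the 3′ level, averaged over both genes, was -1.05, -0.96 and -1.04 in clones 1, 2 and 3 at passage 4. At passage 16 it was -2.16, -2.29 and -3.43, with no overlap. In TTF lines the same measure went from between -4.00 and -2.18 at passage 4 to between -2.33 and -1.75 at passage 16, so the direction was not shared by all origins. In the B cell lines alone, passage cannot be told apart from RNA quality or from a separate labelling or array run. Whether the passages were labelled or run separately is not given in the labels. A fit with this measure as a covariate over the 33 arrays, an alternative added after seeing the data, is given beside the results. Its slope rests on the spread within groups, which was widest in granulocyte lines of mouse 2 at passage 16 (SD 1.87). The fit is therefore no full control for RNA quality in the B cell lines.

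**Figure D1:**
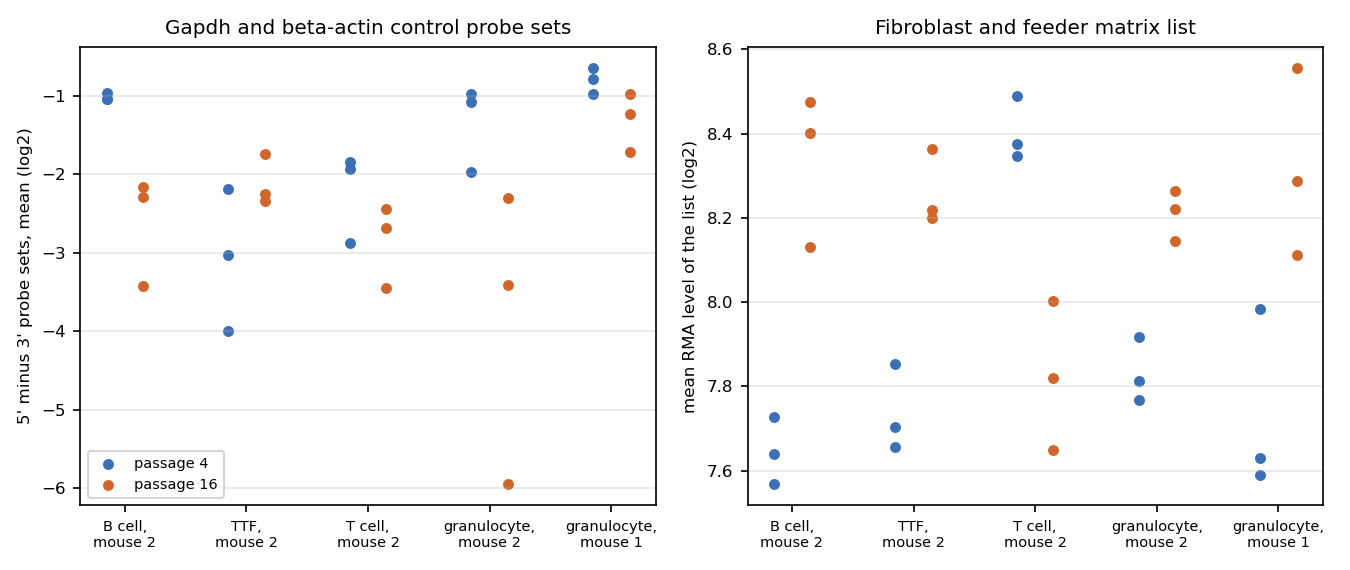
The left panel plots, for each array, the 5′ minus 3′ level of the Gapdh and beta-actin control probe sets (log2, mean of both genes) by origin and passage, and the right panel the mean level of the 29 measured genes of the fibroblast and feeder matrix list. Each point is 1 clone. In B cell lines the left measure lies near -1 at passage 4 and between -3.43 and -2.16 at passage 16, while the list mean lies between 7.57 and 7.73 at passage 4 and between 8.13 and 8.47 at passage 16.

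Between passage 4 and passage 16, 945 of 11807 genes changed (8.0% of genes tested). Of these, 651 were higher at passage 16 (5.51%) and 294 were lower (2.49%). The median change over all genes was 0.06, and 250 called genes differed by over 2-fold, 144 of them higher and 106 lower. The 6 values separated by passage in 924 of the 945 called genes and in 33.8% of all genes. The split between higher and lower calls depended on the scaling: after cyclic loess it was 540 higher against 446 lower, and after quantile normalization 478 against 340. Without clone 3 at passage 16, 356 genes were called, without clone 2 at passage 4, 416, and without clone 1 at passage 4, 530. All 945 genes kept their sign in each fit that left out 1 array. For the 924 genes whose values separated by passage this outcome was fixed in advance, so it is no measure of stability. With the 5′ minus 3′ measure as a covariate 1478 genes were called, 484 of them among the 945, and all 945 kept their sign.

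**Figure D2:**
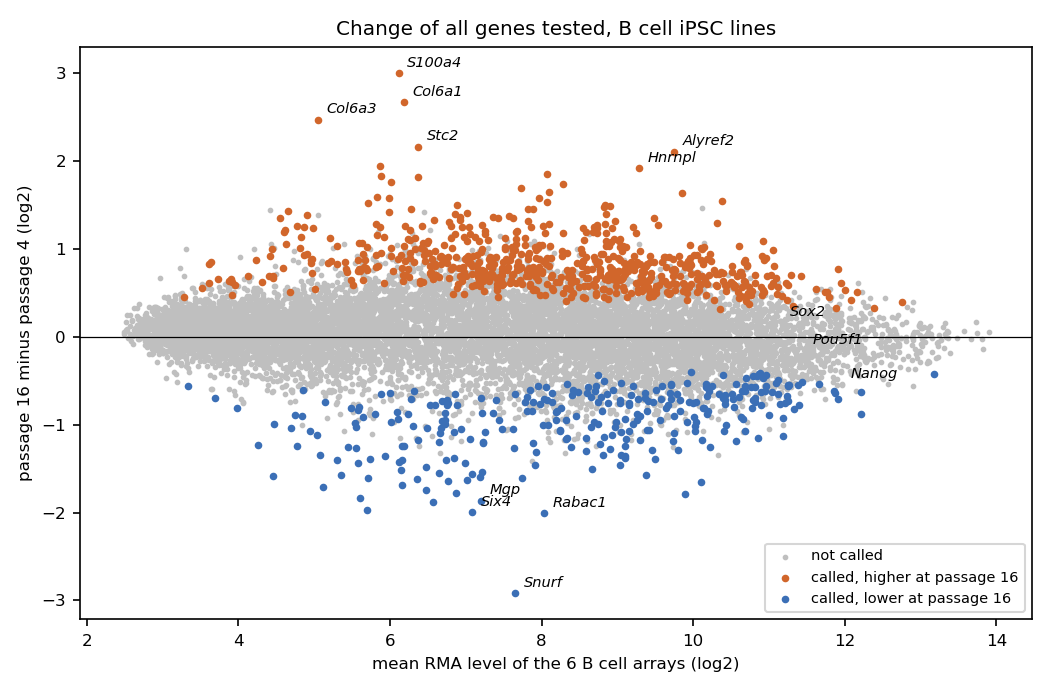
Each point is 1 of 11807 genes, with the mean RMA level of the 6 B cell arrays (log2) on the x axis and the passage 16 minus passage 4 difference (log2) on the y axis. Called genes are coloured by direction. S100a4 (3.01) and Snurf (-2.92) lie farthest from 0, while Pou5f1, Nanog and Sox2 lie at the right, near 0.

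The 3 largest increases were those of S100a4, Col6a1 and Col6a3. S100a4, an EF-hand calcium-binding protein known as a fibroblast marker, stood at 4.74, 4.78 and 4.34 in clones 1, 2 and 3 at passage 4 and at 7.30, 7.30 and 8.26 at passage 16. All 3 late values lay above all early ones, and the rise was 8.03-fold (3.01 ± 0.28 on the log2 scale, adjusted p = 2.57e-07). The 3 chains of collagen VI, a matrix collagen made mainly by mesenchymal cells, rose together. Col6a1 went from 4.90, 4.70 and 4.94 to 6.96, 7.38 and 8.20 (2.67 ± 0.29, adjusted p = 3.83e-06). Col6a3 went from 3.93, 3.90 and 3.61 to 6.10, 6.35 and 6.42 (2.48 ± 0.28, adjusted p = 6.15e-06). Col6a2 went from 4.78, 5.01 and 4.88 to 6.17, 6.77 and 7.58 (1.95 ± 0.35, adjusted p = 0.0012). In Col6a1 and Col6a2 the late values spread over more than 1 log2 unit, with clone 3 highest, and in Col6a3 the late clones lay within 0.17 (SD). At passage 4 the 3 chains sat near or below the 25th percentile of genes.

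To show these leading genes as sequence, the 100 bases before the RefSeq start (GRCm38.p6) of S100a4, Col6a1 and Col6a3 follow, 5′ to 3′ on the strand of the gene, with that of Slc16a3, a lactate exporter of the hypoxia group described further on. Capitals mark the 2 motifs searched on both strands, TGANTCA, the site of AP-1 factors, and ACGTG, the core of hypoxia response elements. Neither motif overlapped the other in these windows.
S100a4: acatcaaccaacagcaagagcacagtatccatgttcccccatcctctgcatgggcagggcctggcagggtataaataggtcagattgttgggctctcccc
Col6a1: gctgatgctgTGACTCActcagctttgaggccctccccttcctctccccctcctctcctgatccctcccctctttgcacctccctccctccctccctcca
Col6a3: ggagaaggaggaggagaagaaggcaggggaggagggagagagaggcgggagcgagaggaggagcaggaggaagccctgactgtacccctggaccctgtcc
Slc16a3: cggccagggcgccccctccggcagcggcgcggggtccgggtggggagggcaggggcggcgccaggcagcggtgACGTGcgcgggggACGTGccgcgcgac
These windows are chr3:90603670-90603769 (plus strand), chr10:76726045-76726144 (minus), chr1:90843972-90844071 (minus) and chr11:120948967-120949066 (plus). Col6a1 held 1 TGANTCA match and Slc16a3 held 2 ACGTG matches, and S100a4 and Col6a3 held neither motif in the 300 bases from 250 before to 50 after the start. Over all 32851 RefSeq promoter windows of 300 bases, 7.8% held TGANTCA and 19.6% ACGTG. Among windows of the genes higher at passage 16, 4.5% of 706 held TGANTCA and 25.1% ACGTG, and among those of lower genes 5.9% and 24.3% of 321, against 6.7% and 23.2% of the 11986 windows of genes tested. A match describes these letters only.

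The other large increases were of varied function. Stc2, a secreted glycoprotein of the stress response, went from 5.62, 5.43 and 4.82 to 7.50, 6.96 and 7.91 (2.17 ± 0.34, adjusted p = 0.000322). Alyref2, an adaptor of mRNA export with a close paralogue in Alyref, went from 8.63, 8.67 and 8.79 to 10.77, 10.95 and 10.71 (2.11 ± 0.21, adjusted p = 4.81e-07). Hnrnpl, a splicing regulator, went from 8.39, 8.46 and 8.11 to 10.10, 10.23 and 10.40 (1.92 ± 0.25, adjusted p = 3.56e-05). In the latter genes the spread within a passage was at most 0.19 (SD), so the groups stood far apart. Zfp423, a zinc finger transcription factor, went from 7.0, 6.81 and 6.84 to 8.49, 8.55 and 8.70 (1.70 ± 0.20, adjusted p = 1.03e-05) with as little spread.

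Among the remaining members of the 15 largest increases, Col5a1, a chain of the fibrillar collagen V, rose by 1.85 ± 0.27 (2 of its 3 probe sets went up) and Loxl3, a lysyl oxidase that cross-links matrix, by 1.82 ± 0.21. Cavin2, a component of caveolae, rose by 1.83 ± 0.26. Tnc, the matrix glycoprotein tenascin C, rose by 1.65 ± 0.37, and S100a6, a relative of S100a4, by 1.64 ± 0.22. Rapgef3, a cAMP-regulated activator of Rap proteins, rose by 1.76 ± 0.47. Dll1, a Notch ligand, rose by 1.74 ± 0.44, but its late clones were unlike each other: clone 1 was at 7.87, close to the early values of 7.62, 7.51 and 7.11, and clones 2 and 3 were at 9.96 and 9.65. For all 15 increases the 6 values separated by passage, as in 924 of the 945 called genes and 33.8% of all genes. The 15 were picked on these same arrays, so this adds no evidence for them. Their adjusted p ran from 2.57e-07 to 0.0195. Leaving out 1 array ended the call of Rapgef3 (without clone 2 at passage 4, adjusted p = 0.106, and without clone 3 at passage 16, 0.118) and of Dll1 (without clone 3 at passage 4, 0.0554, and without clones 2 and 3 at passage 16, 0.0815 and 0.0925), and of no other of the 15.

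Among the decreases, that of Snurf was the largest. Snurf is encoded upstream of Snrpn in the 5′ part of the same imprinted transcript, which is expressed from the paternal allele. It went from 9.26, 9.33 and 8.75 to 6.50, 6.09 and 6.0, a 7.55-fold fall (-2.92 ± 0.56, adjusted p = 0.00194). Snrpn itself, named here after its values were seen, was at 11.17, 11.09 and 10.42 early and at 10.65, 10.64 and 10.58 late, and its change of -0.27 ± 0.16 was not called (adjusted p = 0.357). With the 5′ minus 3′ measure as a covariate the Snurf change was -1.89 ± 0.50 (adjusted p = 0.0205). Snurf changed by -2.92 in granulocyte lines of mouse 2, -1.52 in T cell lines, -1.27 in granulocyte lines of mouse 1 and 1.64 in TTF lines. Its change in B cell lines was not called as different from the mean of the other origins of mouse 2 (adjusted p = 0.116).

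Several transcription factors fell as well. Six4, a homeobox gene, went from 8.04, 8.0 and 8.20 to 6.45, 6.51 and 5.30 (-1.99 ± 0.48, adjusted p = 0.00964). Zic2, expressed in the epiblast and neural plate, was at 8.34, 8.50 and 6.42 early and at 6.56, 6.01 and 5.37 late (-1.77 ± 0.53, adjusted p = 0.0363). Pax6, an eye and forebrain regulator, was at 7.81, 8.21 and 6.0 early and at 6.30, 5.48 and 5.01 late (-1.75 ± 0.46, adjusted p = 0.0176). Zic2 and Pax6 were low in clone 3 at passage 4, which overlapped the late clones, and these were the 2 genes of the 30 largest changes whose groups overlapped. Only 3 of the 5 probe sets of Pax6 went the same way. Pknox1, a TALE homeobox gene, fell by 1.83 ± 0.44.

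Genes of membranes, metabolism and cell structure made up the rest of the largest decreases. Rabac1, an acceptor of prenylated Rab proteins, went from 8.77, 9.0 and 9.33 to 7.39, 7.31 and 6.39 (-2.0 ± 0.43). Mgp, a matrix protein that inhibits calcification, went from 8.33, 8.35 and 7.72 to 6.31, 6.22 and 6.28 (-1.86 ± 0.33, adjusted p = 0.00122), against the direction of the other called matrix genes. G6pd2, a retrocopy of the glucose 6-phosphate dehydrogenase gene, fell by 1.97 ± 0.36 in 1 of 2 probe sets. Whether that probe set also reads the parent gene was not tested. Dsc2, a desmosomal cadherin, fell by 1.88 ± 0.43, Zfp207, a spindle assembly factor, by 1.79 ± 0.34, Ap1s2, a clathrin adaptor subunit, by 1.71 ± 0.27 and Sephs1, of the selenophosphate synthetase family, by 1.68 ± 0.24. D10Wsu102e fell by 1.66 ± 0.34, Vamp2, a vesicle fusion protein, by 1.64 ± 0.32 in 1 of 2 probe sets and Gstk1, a glutathione transferase, by 1.63 ± 0.40. On the arrays of clone 3 at passage 16, which had the largest 5′ minus 3′ deficit, Gstk1 was at 4.99 against 6.96 and 6.64 in clones 1 and 2.

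Of the 30 largest changes, 22 were called in each of the 6 fits that left out 1 array, 13 of the increases and 9 of the decreases. Without clone 3 at passage 16, the decreases of Dsc2 (adjusted p = 0.0688), Gstk1 (0.148), Pax6 (0.123), Pknox1 (0.0646), Six4 (0.0925) and Zic2 (0.201) were not called. Zic2 and Pax6 were also lost without clone 1 at passage 4 (0.153 and 0.0866), without clone 2 at passage 4 (0.19 and 0.138) and without clone 2 at passage 16 (0.0728 and 0.0501), and Gstk1 without clone 3 at passage 4 (0.0517). With the 5′ minus 3′ measure as a covariate, 25 of the 30 stayed called, and Rapgef3, Gstk1, Pax6, Pknox1 and Zic2 did not (adjusted p from 0.0719 to 0.147). Among the 15 increases, 2 moved by over 1.5 times in that fit (Col6a2 to 1.16 and Rapgef3 to 0.88), and the median change was 1.87. Among the 15 decreases 7 did, Snurf to -1.89, Rabac1 to -0.93, Six4 to -0.74, Pknox1 to -1.19, Zfp207 to -0.94, D10Wsu102e to -0.76 and Gstk1 to -0.93, and the median change was -1.31.

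**Figure D3:**
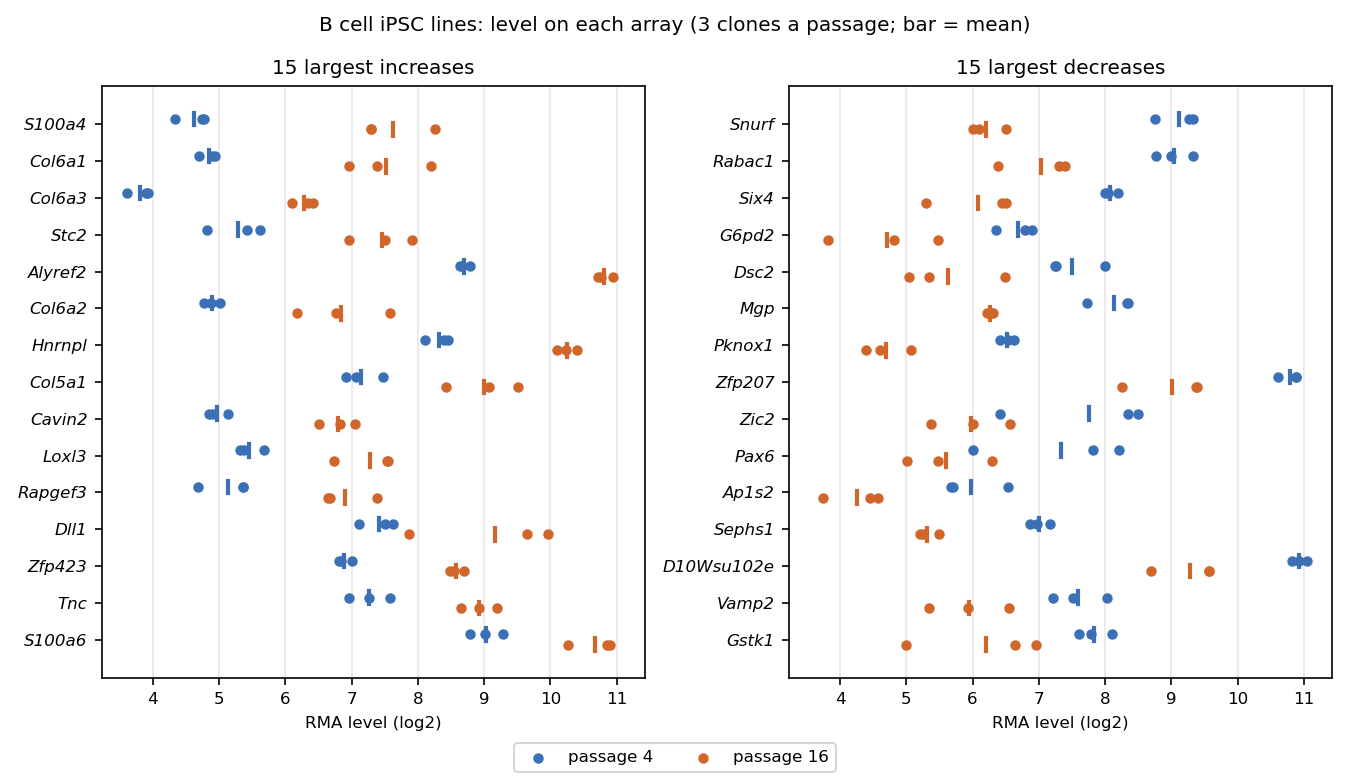
Points give the RMA level (log2, x axis) of each clone at passage 4 and passage 16 for the 15 genes with the largest increase (left) and the 15 with the largest decrease (right), and the short bars are means of 3 clones. The groups separate in all genes shown except Zic2 and Pax6, where clone 3 at passage 4 lies among the late clones. The genes were picked on these same arrays, and 924 of the 945 called genes separate likewise.

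The pluripotency network did not change past the threshold. None of its 25 measured members was called, against 8.0% of all genes, and 4 had an unadjusted p under 0.05 in limma, against 22% of all genes. The median change of the 25 was -0.14, and 7 of them had a change above 0. Pou5f1, the central factor of the network, was at 11.62, 11.58 and 11.42 early and 11.61, 11.25 and 11.31 late (-0.15 ± 0.13, adjusted p = 0.557). Nanog was at 12.15, 12.23 and 12.33 early and 12.01, 11.83 and 11.27 late, so all late values were lower, but the difference of -0.54 ± 0.26 was not called (adjusted p = 0.213). Sox2 was at 11.19, 11.08 and 11 early and at 11.22, 11.38 and 11.16 late (0.17 ± 0.13, adjusted p = 0.503). In the germline list none of 13 genes was called, and in the list of 2-cell-like transcripts none of 5, with 3 and 2 genes at an unadjusted p under 0.05 in limma.

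No gene of the B cell list passed the threshold either. None of its 21 measured members was called, against 8.0% of all genes, a share that would put fewer than 2 genes in a list of this size, 2 had an unadjusted p under 0.05 in limma, and the median change was -0.04. The defining markers of B cells covered 3.13 to 6.83 at passage 4 and 3.08 to 6.11 at passage 16. Likewise none of the 14 T cell genes or the 18 granulocyte and myeloid genes was called, with 3 and 2 genes at an unadjusted p under 0.05.

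The fibroblast and feeder matrix list had the largest share of called genes among the lists examined, 13 of 29 (44.8%, against 8.0% of all genes). Of these, 12 rose and 1, Mgp, fell, and the list's median change was 0.67, against 0.06 over all genes and 0.27 for the same list averaged over the other origins of mouse 2. The largest members were S100a4, the 3 chains of collagen VI and Mgp, described above. The mean level of the list was 7.64, 7.57 and 7.73 early and 8.13, 8.40 and 8.47 late. Of the 29 measured members, 24 had a change above 0. Among the 4 feeder markers Col1a1, a chain of collagen I, rose by 1.40 ± 0.27, Postn, the matrix protein periostin, by 1.59 ± 0.29 and Col3a1, of collagen III, by 1.01 ± 0.30. The other marker, Dcn, the proteoglycan decorin, lay near the 25th percentile of all genes, at 4.76, 4.86 and 4.84 early and at 4.68, 4.65 and 5.29 late, and was not called. The feeder share of the RNA was not tested. Leaving out clone 1 or clone 2 at passage 4 or clone 3 at passage 16 left 8 called genes in the list each time, and 11 were called with the 5′ minus 3′ covariate.

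**Figure D4:**
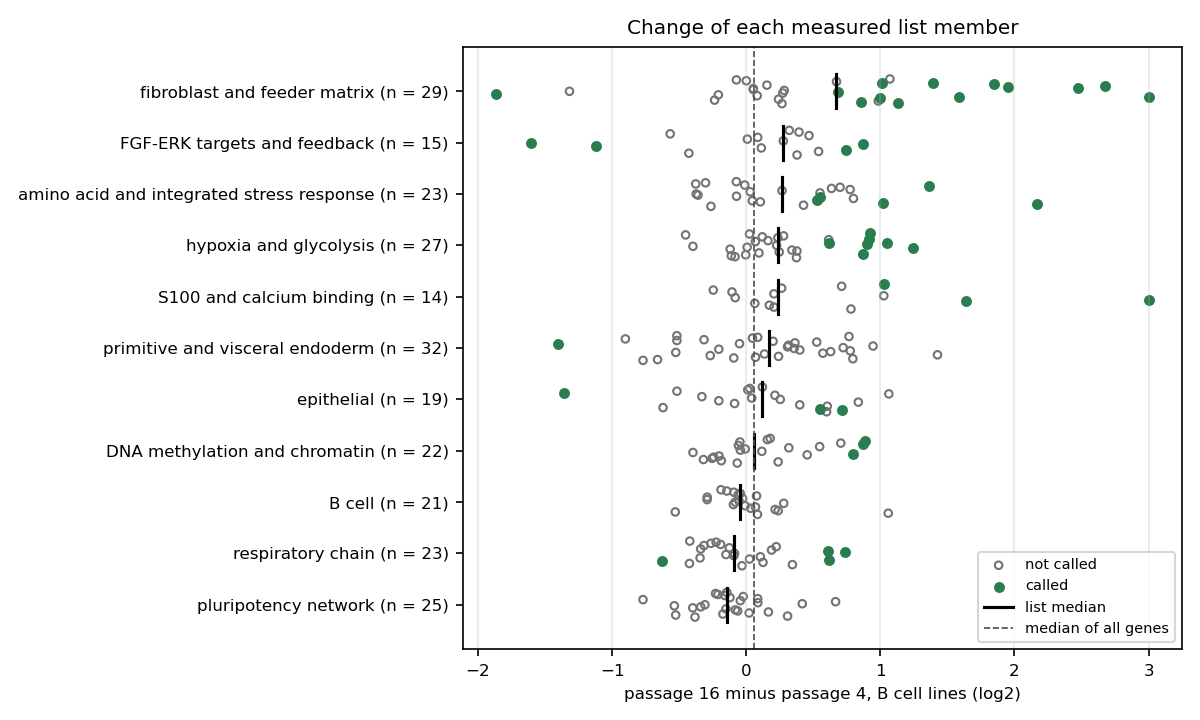
Each point is a measured gene of a list, placed by its passage 16 minus passage 4 change in B cell lines (log2, x axis). Filled points passed the test, solid bars are list medians and the dashed line is the median of all genes (0.06). The fibroblast and feeder matrix list has a median of 0.67 and 13 filled points, while the pluripotency network and B cell lists have none.

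Of the S100 and calcium-binding list 3 of 14 genes were called (21.4%, against 8.0% of all genes), all higher. S100a6 went from 9.29, 9.01 and 8.78 to 10.85, 10.26 and 10.90 and Anxa1, a calcium-dependent membrane-binding protein, from 8.64, 8.42 and 8.73 to 9.69, 9.74 and 9.43 (1.02 ± 0.26, adjusted p = 0.0131, and 0.0724 without clone 2 at passage 4). S100a4 is counted here too.

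Genes of hypoxia and glycolysis that changed all rose, 7 of 27 measured (25.9%, against 8.0% of all genes), with a list median of 0.24 against 0.36 in the other origins. Ndrg1, a gene induced by hypoxia, went from 8.69, 8.29 and 7.95 to 9.79, 9.49 and 9.38 (1.24 ± 0.22, adjusted p = 0.0012). Gys1, muscle glycogen synthase, went from 7.40, 7.14 and 6.87 to 8.30, 7.96 and 8.30 (1.05 ± 0.18, adjusted p = 0.000968), in 1 of its 2 probe sets. Adm, the peptide hormone adrenomedullin, went from 5.57, 5.50 and 5.57 to 6.87, 6.65 and 5.89, lowest in clone 3 at passage 16 (0.92 ± 0.25, adjusted p = 0.0201). Egln3, a prolyl hydroxylase of the hypoxia pathway, rose by 0.92 ± 0.25 and Hk1, a hexokinase, by 0.90 ± 0.21. Slc16a3 (MCT4), whose promoter is printed above and which was picked for it after its values were seen, went from 9.72, 9.64 and 9.63 to 10.66, 10.63 and 10.32 (0.87 ± 0.13). The glycolytic enzymes at the top of the intensity range stayed uncalled, among them Ldha with 12.72, 12.70 and 12.49 early and 12.73, 12.70 and 12.50 late. The ACGTG core was found in the promoter windows of 16 of the 24 list genes with a window and of 4 of the 6 called genes with one, against 26.8% of all tested genes with a window. Hk1 went the other way with the mean of its 2 probe sets (-0.05). Its call was lost without clone 2 at passage 4 (0.0568), that of Adm without clone 1 or 2 at either passage (0.0529 to 0.0977), and that of Egln3 without clone 3 at passage 4 (0.201) and clone 1 at passage 16 (0.124). With the 5′ minus 3′ covariate 12 genes of the list were called.

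The 5 called genes of the amino acid and integrated stress response list, of 23 measured (21.7%, against 8.0% of all genes), all rose. Slc7a5 and Slc3a2 encode the light and heavy chains of the same transporter of large neutral amino acids. Slc7a5 went from 9.79, 9.58 and 9.53 to 10.55, 10.43 and 10.98 (1.02 ± 0.14, adjusted p = 6.43e-05) and Slc3a2 from 10.68, 10.72 and 10.58 to 11.15, 11.22 and 11.20 (0.53 ± 0.16, adjusted p = 0.043). Both separated by passage, as most called genes did. Cebpb, a bZIP transcription factor of the stress response, rose by 1.36 ± 0.35 in 1 of 3 probe sets, and Sesn2, a sestrin that senses leucine, by 0.55 ± 0.16 in 1 of 2. Stc2, given above, is the fifth. The list had 2 called genes without clone 1 at passage 4 or clone 3 at passage 16, and 3 without clone 2 at either passage. Slc3a2 was lost when any of the 6 arrays was left out (adjusted p from 0.07 to 0.132). Sesn2 was lost without clone 1 or 3 at passage 4 and clone 2 or 3 at passage 16 (0.0548 to 0.23), and Cebpb without clone 1 or 2 at passage 4 and clone 3 at passage 16 (0.0506 to 0.14). With the 5′ minus 3′ covariate Cebpb and Sesn2 were not called. The motif TGATGNAA of amino acid response elements, searched on both strands, was in a promoter window of 7 of the 21 list genes with a window and of none of the 4 called genes with one, against 3.1% of all tested genes with a window and 3.97% of all windows.

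FGF signalling genes moved in both directions, 4 of 15 (26.7%, against 8.0% of all genes). Fgfr2, a receptor for FGF ligands, went from 8.38, 9.23 and 8.03 to 7.33, 6.64 and 6.86 (-1.60 ± 0.50, adjusted p = 0.0448), and Phlda1, a target of ERK, from 9.19, 9.65 and 9.64 to 9.30, 7.45 and 8.37 (-1.12 ± 0.30, adjusted p = 0.0208), so that clone 1 at passage 16 lay within the early range. Il17rd and Spred2, both inhibitors of the pathway, rose by 0.87 ± 0.24 and 0.74 ± 0.20 (Spred2 in 1 of 2 probe sets). Each of the 4 calls was lost in some fits without 1 array. Fgfr2 was lost without clone 1 or 2 at passage 4 and clone 2 or 3 at passage 16 (0.0846 to 0.215). Phlda1 was lost without clone 2 or 3 at either passage (0.0696 to 0.163), Il17rd without clone 1 or 3 at either passage (0.0504 to 0.133), and Spred2 without clone 1 or 3 at passage 4 and clone 3 at passage 16 (0.0531 to 0.127). Fgfr2 and Il17rd were not called with the 5′ minus 3′ covariate.

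Of 22 genes of DNA methylation and chromatin, 3 were called, all higher (13.6%, against 8.0% of all genes). The count is close to the background and is no result about the list, so the 3 genes are given for themselves. Dnmt1, the maintenance DNA methyltransferase, went from 9.70, 9.68 and 9.83 to 10.57, 10.70 and 10.59 (0.88 ± 0.13, adjusted p = 0.000157), with SDs under 0.1. Dnmt3l, the cofactor of de novo methylation, went from 10.29, 10.51 and 9.94 to 11.21, 11.11 and 11.04 (0.87 ± 0.25, adjusted p = 0.0318), and Kdm4c, a demethylase of histone H3 lysine 9, from 9.52, 9.23 and 9.0 to 9.87, 10.07 and 10.20 (0.80 ± 0.15, adjusted p = 0.00181). The Dnmt3l call was lost in 5 of 6 fits that left out 1 array, all but that without clone 2 at passage 4 (0.0685 to 0.141).

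In the respiratory chain list 4 of 23 genes were called (17.4%, against 8.0% of all genes), with a median of -0.09, and from so few calls nothing is read about the list. The complex I subunits Ndufa2, Ndufv1 and Ndufa1 rose by 0.73 ± 0.16, 0.62 ± 0.17 and 0.61 ± 0.17, and Sdha, the catalytic subunit of complex II, fell by 0.62 ± 0.20. Sdha was at 11.39, 11.27 and 11.40 early and at 10.95, 11.01 and 10.23 late, lowest in clone 3. Sdha was lost without any 1 early clone and without clone 3 at passage 16 (0.1 to 0.387), Ndufa1 in all such fits except that without clone 3 at passage 16 (0.0585 to 0.0921), Ndufv1 in all except that without clone 1 at passage 4 (0.0522 to 0.112), and Ndufa2 without clone 3 at passage 16 (0.0513). Ndufa1 and Sdha were not called with the 5′ minus 3′ covariate.

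Of 19 epithelial genes 3 were called (15.8%, against 8.0% of all genes), again too few to be read as a result about the list. Cldn7, a tight junction claudin, went from 9.27, 9.84 and 10.25 to 8.88, 8.52 and 7.88 (-1.36 ± 0.41, adjusted p = 0.0378). Spint1 and Spint2, related inhibitors of membrane proteases, rose by 0.55 ± 0.16 and 0.71 ± 0.20. Cldn7 was lost without clone 2 or 3 at either passage (0.0679 to 0.222), Spint1 in all fits that left out 1 array except that without clone 3 at passage 4 (0.0509 to 0.199), and Spint2 without clone 1 or 2 at passage 4 and clone 3 at passage 16 (0.0921 to 0.208). Cldn7 and Spint2 were not called with the 5′ minus 3′ covariate.

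Genes of primitive and visceral endoderm varied widely between the clones of a passage. Of 32 genes, 1 was called (3.1%, against 8.0% of all genes). In limma 8 of the 32 had an unadjusted p under 0.05, against 22% of all genes. The called gene, Foxa1, a pioneer transcription factor, went from 6.28, 6.10 and 5.64 to 5.28, 4.26 and 4.28 (-1.40 ± 0.27, adjusted p = 0.00194). Its fall went against most of the list, where 20 members had a change above 0 and the median was 0.17. The list's mean level was 7.30, 7.72 and 8.21 at passage 4 and 8.63, 7.15 and 7.77 at passage 16. At passage 16, clone 1 held the highest value for 30 of the 32 genes and clone 2 the lowest for 27, and at passage 4 clone 3 was highest for 22 and clone 1 lowest for 26. Sox17, an endoderm regulator, was at 4.89, 5.53 and 6.80 early and at 8.18, 5.75 and 7.55 late, and Cubn, a receptor of the visceral endoderm, at 8.42, 9.25 and 8.60 early and 10.21, 7.60 and 9.55 late, so both overlapped between passages, and neither was called (adjusted p = 0.0875 and 0.82). Both were picked after their values were seen. The motif AGATAA of GATA factors was in a promoter window of 4 of the 20 list genes with one, against 9.6% of all tested genes with a window and 11.2% of all windows.

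Lists with 1 or 2 called genes, shares near the 8.0% of all genes, are given by those genes, named after their values were seen. Higher at passage 16 were Mvd, of cholesterol synthesis (1 of 16 genes, 1.04 ± 0.21), Bcl3, of the LIF-STAT3 and BMP-Id list (1 of 20, 1.20 ± 0.24), Fosb among immediate early genes (1 of 17, 0.92 ± 0.29), Pdia4 in the unfolded protein response (1 of 15, 1.36 ± 0.33), Rhox6 among trophoblast genes (1 of 13, 1.21 ± 0.30) and Cdkn2b, a cell cycle inhibitor (1 of 11 growth arrest genes, 1.14 ± 0.31). Cat and Mt1, of redox and glutathione metabolism, also rose (2 of 21, 0.83 ± 0.25 and 0.54 ± 0.14), as did Plk2 and Sesn2 among p53 targets (2 of 18). Lower were Plagl1, the called gene of 22 imprinted genes (-1.35 ± 0.27), Tapbp of antigen presentation (1 of 9, -0.95 ± 0.22), Irf9 of the interferon response (1 of 17, -0.73 ± 0.23) and Rpl14 among ribosomal proteins (1 of 22, -0.64 ± 0.16). Of the 12 of these genes not described elsewhere, Mvd, Bcl3 and Plagl1 were called in all 6 fits without 1 array. Pdia4 and Tapbp were lost without clone 3 at passage 16 (0.057 and 0.0536), Rpl14 without that array or clone 3 at passage 4 (0.0945 and 0.0502), and Mt1 without clone 3 at passage 4 or clone 1 at passage 16 (0.064 and 0.0519). Cat was lost without clone 1 or 2 at passage 4 and clone 2 or 3 at passage 16 (0.072 to 0.177), Cdkn2b without clone 1 or 2 at passage 4 and clone 1 or 3 at passage 16 (0.0573 to 0.127), and Rhox6 without clone 1 or 2 at either passage (0.0515 to 0.0744). Fosb was lost in all but the fit without clone 1 at passage 16 (0.0947 to 0.235) and Irf9 in all 6 (0.0526 to 0.214). With the 5′ minus 3′ covariate Cat, Fosb, Irf9, Mt1 and Tapbp were not called. Zic2 and Pax6, described above, were the called genes of the epiblast (1 of 13) and early neural (1 of 12) lists. None was called of 19 primitive streak and mesoderm genes, 14 muscle genes or 28 genes of DNA replication and mitosis, of which 1, 1 and 3 had an unadjusted p under 0.05 in limma.

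Beside the lines of the other origins of mouse 2, the B cell lines stood apart at passage 4 more than later for these genes. S100a4 at passage 4 covered 5.66 to 6.78 (median 6.44) over the 9 arrays of TTF, T cell and granulocyte lines of mouse 2, above all 3 B cell clones, and at passage 16 it covered 6.79 to 7.96, among the B cell values. Col6a1 covered 5.66 to 7.86 in those lines at passage 4 and 6.11 to 8.05 at passage 16. The granulocyte lines of mouse 1, however, overlapped the B cell values at passage 4. They covered 4.29 to 5.28 for S100a4 and 4.78 to 5.57 for Col6a1. Over the 15 largest increases, the B cell mean minus that of the other origins of mouse 2 lay between -1.91 and -0.47 at passage 4 (median -1.11). At passage 16 it lay between -0.15 and 0.78 (median 0.31). For the 15 largest decreases it lay between -0.44 and 2.48 at passage 4 (median 1.18) and between -0.37 and 0.65 at passage 16 (median 0.11). These are descriptions, since the genes were chosen on the same early arrays. In the separately normalized table of passage 10, which played no role in the choice, 14 of the increases and 14 of the decreases were measured, and the B cell lines differed from the others by between -0.23 and 0.48 and by between -0.19 and 0.33. None of these 28 differences was called (adjusted p from 0.112 to 0.995), and the array platform differs as well. Over all genes, the median absolute difference between B cell and other lines of mouse 2 was 0.185 at passage 4 and 0.138 at passage 16.

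The passage change of the B cell lines differed from the mean change of the other 3 origins of mouse 2 for 209 genes (1.77% of 11807), 149 with a more positive change (1.26%) and 60 with a more negative one (0.508%). Of these, 127 were also called for the change itself and 82 were not. The other origins lowered Plk2, a stress-induced polo-like kinase, by 0.98 on average, while in B cell lines it went from 8.48, 8.72 and 9.48 to 10.41, 10.08 and 10.02, a difference of 2.26 ± 0.30 (adjusted p = 0.000213). For Col6a1 the difference was 2.22 ± 0.34, for Alyref2 2.01 ± 0.24 and for S100a4 1.96 ± 0.32. Ereg, a ligand of the EGF family, went from 3.90, 3.84 and 4.29 to 5.19, 5.13 and 5.36, and differed by 1.75 ± 0.29 (adjusted p = 0.00178). Frs3, an adaptor of FGF receptors, differed by 1.89 ± 0.29, Ppp1r3c, which targets a phosphatase to glycogen, by 1.80 ± 0.36 (1 of 2 probe sets went up), and Nectin4, an adhesion molecule whose change in B cell lines was not called (0.45 ± 0.33), by 1.90 ± 0.38. Of the 16 differences named here and in the next paragraph, 12 were not called against at least 1 of the 3 origins taken alone, and those of Plk2, Alyref2, S100a4 and Ereg were called against each. Against granulocyte lines alone the difference was -0.05 for Frs3, 0.46 for Nectin4 (adjusted p = 0.585), 0.39 for Ppp1r3c (0.618) and -1.06 for Zic2 (0.422), and against TTF lines alone it was 0.97 for Col6a1 (0.159). In the granulocyte lines of mouse 1, which the mean of other origins does not include, all 16 genes changed in the B cell direction, Plk2 by 1.16, Ereg by 1.38, Frs3 by 1.32, Ppp1r3c by 1.37, Nectin4 by 0.98, Zic2 by -1.96 and Lhpp by -1.83. Leaving out 1 B cell array gave between 39 and 294 genes called for the difference, with 39 without clone 1 and 40 without clone 2 at passage 4, 97 without clone 2 and 99 without clone 3 at passage 16, and 127 without clone 1 at passage 16.

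On the negative side of this comparison, Zic2 differed by -2.36 ± 0.61 (adjusted p = 0.043). Aass, an enzyme of lysine breakdown, went from 4.74, 5.57 and 6.46 to 4.47, 4.63 and 4.32 (difference -1.66 ± 0.37), and Arhgap18, a GTPase activating protein, from 6.51, 7.20 and 6.71 to 6.05, 5.32 and 5.33 (-1.62 ± 0.36). Sema3e, a secreted guidance factor, differed by -1.61 ± 0.33, Galnt7, an enzyme of mucin-type glycosylation, by -1.57 ± 0.30 and Fgf1, a growth factor, by -1.43 ± 0.32. Scg5, a chaperone of a hormone convertase, differed by -1.57 ± 0.37 and Lhpp, a phosphatase, by -1.50 ± 0.39, and Lhpp at passage 4 ran from 8.38 in clone 1 to 6.61 in clone 3. Against T cell lines alone the difference was -0.69 for Scg5 (0.431), -1.0 for Aass (0.185), -0.94 for Arhgap18 (0.214), -1.14 for Lhpp (0.148) and -1.17 for Sema3e (0.0671), and against TTF lines alone -0.83 for Galnt7 (0.173) and -0.79 for Fgf1 (0.229). Several of these calls depended on single arrays. Zic2, Lhpp, Scg5, Sema3e, Arhgap18, Fgf1 and Aass each lost the call in 1 or more fits without 1 B cell array (adjusted p from 0.0513 to 0.228), with no B cell array without which all 7 were called. On the positive side Nectin4 was lost without clone 1 at passage 4 (0.07) and Ppp1r3c without clone 1 or 2 at passage 4 and clone 2 at passage 16 (0.051 to 0.0636).

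The granulocyte lines of mouse 1 share no array with the B cell comparison, and of the 4 other passage comparisons theirs had the values nearest to it. Over all genes the changes of the 2 comparisons correlated at r = 0.698 across genes, which are not independent replicates, and 931 of the 945 called genes (98.5%) had the same sign there, against 72.8% of all genes. In the granulocyte lines of mouse 2 the same sign was seen for 83.9% of the called genes and 68% of all genes (r = 0.479), in T cell lines for 67% and 58.9% (r = 0.203) and in TTF lines for 59.9% and 50.7% (r = 0.0996). In the granulocyte lines of mouse 1, S100a4 went from between 4.29 and 5.28 to between 7.63 and 8.14 (3.18 ± 0.28). Col6a1 changed there by 2.36 ± 0.29 and Pax6 by -1.80. All 30 of the largest B cell changes had the same sign there, with medians of 1.40 for the increases and -0.94 for the decreases. In T cell lines, by contrast, Col6a1 changed by -1.06 and Dll1 by -2.39, and Zic2 changed by 2.07 in TTF lines. The 5′ minus 3′ measure went from between -0.98 and -0.64 to between -1.72 and -0.97 in granulocyte lines of mouse 1. In those of mouse 2 it went from between -1.98 and -0.97 to between -5.95 and -2.30. For T cell lines it went from between -2.88 and -1.85 to between -3.46 and -2.45. In TTF lines its mean was higher at passage 16. Its part in the correlations was not tested.

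**Figure D5:**
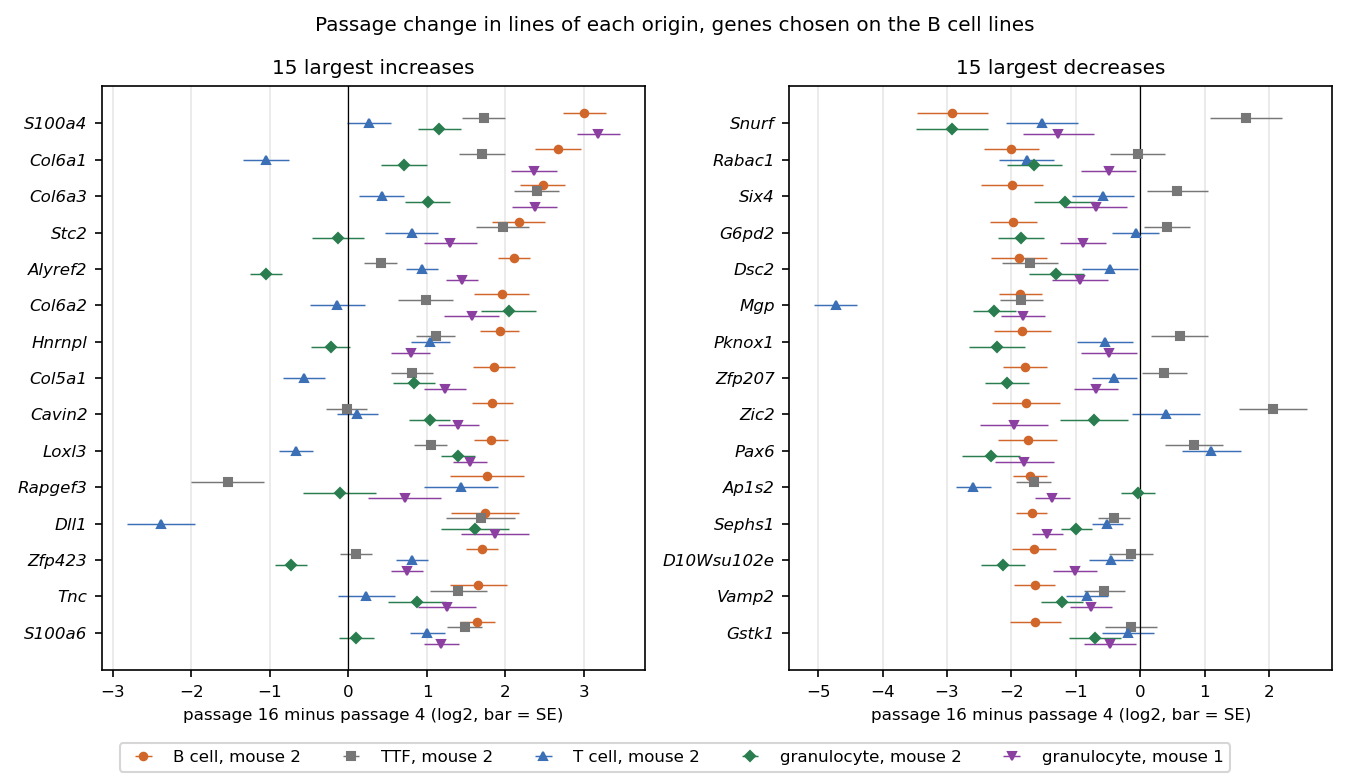
For the 15 largest increases (left) and decreases (right) of the B cell lines, points give the passage 16 minus passage 4 change (log2, x axis) in lines of each origin and bars give its SE (n = 3 clones a passage). All 30 genes have the same sign in B cell lines and in granulocyte lines of mouse 1, whereas TTF lines share it for 13 increases and 8 decreases and T cell lines for 10 and 13.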

How the data were processed

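RNA of 45 mouse iPSC cultures was measured on Affymetrix arrays. The authors deposited log2 values made with RMA, per the submitters' processing notes, as 2 tables from 2 platforms, normalized separately; version, annotation and filters are not given in the sources used here. No contrast crossed the tables. Of 22690 probe sets in the table of passages 4, 6 and 16, 18003 had 1 symbol, 287 several and 4400 none. A gene with several took that of highest mean level (11807 genes, no filter on dim genes).

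Group means over all 33 arrays were fitted with limma 3.58.1 in R 4.3.3 (lmFit, eBayes) and tested on simulated data. Called genes had a Benjamini-Hochberg adjusted p under 0.05. Chromosome medians were compared by an exact permutation test.

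Members, the 32 gene lists and the comparisons were chosen with earlier results of these data known. Named were the 15 largest called changes in each direction, up to 5 called members of each list with 3 or more called genes (and of the pluripotency, B cell, endoderm and fibroblast lists), the 8 largest called differences from the other origins in each direction, and Pou5f1, Nanog and Sox2. For 27 of the 70 names there was more than 1 probe set, and for 17 of these all went the same way. Alternatives covered scaling, dim genes, probe sets, samples, spread models, clone blocks and covariates.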

Additional observations from a re-analysis of the deposited data

Results flagged for a closer look

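The results below differed between the B cell lines and the other origins of mouse 2 in their passage change, by the limma contrast of the difference at an adjusted p under 0.05. Values are the B cell change minus the mean change of TTF, T cell and granulocyte lines, on the log2 scale. The groups hold 3 arrays each, too few to test for single outlying arrays.

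More positive in B cell lines were Plk2 (2.26), Col6a1 (2.22), Alyref2 (2.01), S100a4 (1.96), Nectin4 (1.90), Frs3 (1.89), Ppp1r3c (1.80) and Ereg (1.75). Named for other reasons and also more positive were Zfp423 (1.64), Col5a1 (1.49), Cavin2 (1.46), Hnrnpl (1.28), Loxl3 (1.23), Sesn2 (0.82) and Spint1 (0.80). More negative were Zic2 (-2.36), Aass (-1.66), Arhgap18 (-1.62), Sema3e (-1.61), Galnt7 (-1.57), Scg5 (-1.57), Lhpp (-1.50), Fgf1 (-1.43) and Foxa1 (-1.28).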

How the results depend on the processing

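Of the 945 called changes, 720 were shared with quantile normalization (818 calls), 774 with cyclic loess (986) and 718 with averaged probe sets (958). The count moved by over 1.5 times without the array of granulocyte clone 3 of mouse 2 at passage 16, whose 5′ minus 3′ measure was the lowest (1712), with array weights, which did not converge (3604), with the 24 arrays of mouse 2 only (523), with every probe set as its own feature (1594), with the 5′ minus 3′ covariate (1478), and with the mean of the fibroblast list as a covariate, which is built from genes under test (8, of which 6 were shared). Leaving out 1 B cell array gave 356 to 849 calls. The corresponding counts for the 209 differences from other origins were 484 without that array, 2148 with array weights, 68 with mouse 2 only, 1103 with the 5′ minus 3′ covariate and 5 with the fibroblast covariate. Leaving out 1 B cell array gave 39 to 294. Against single origins the counts were 917 (TTF), 1067 (T cells) and 532 (granulocytes). The direction turned for Hk1 with averaged probe sets (-0.0496), Tnc with the fibroblast covariate (-0.21) and the Frs3 difference against granulocyte lines alone (-0.0469). The cause was not tested.

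Clone numbers are not established as a pairing: same-numbered clones of the 2 passages deviated with r = -0.18, 0.13 and -0.18 over 2000 variable genes. Pairs of unlike number ran from -0.18 to 0.24. The highest were clone 3 at passage 4 with clone 1 at passage 16 (0.24) and clone 1 at passage 4 with clone 3 at passage 16 (0.20). With the clone line as a fixed replicate block 618 changes were called (582 shared) and 65 differences, and as a random block 948 and 213.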

Other observations

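Clone numbers are not established as marking the same line at both passages. By a rule set after seeing the data (1 clone over 2 log2 units from both others, in the same direction at both passages), 2 of 11807 genes were found, both in the clones numbered 2. Eif2s3y, a gene of the Y chromosome, was at 5.66, 10.31 and 3.85 in clones 1, 2 and 3 at passage 4 and at 5.71, 9.46 and 5.16 at passage 16. Mcts2, an imprinted gene, was at 10.78, 7.12 and 10.47 and then at 10.24, 7.33 and 9.83. In the separate table of passage 10, Eif2s3y was at 6.60, 6.67 and 6.42 in the 3 B cell clones, within the range of all 12 arrays (6.42 to 7.23).

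Chromosome 8, singled out after its values were seen, had the largest median change of its genes, 0.12 over 610 genes, with 0.10, 0.09 and 0.18 in the 3 late clones against a median of 0.06 over all genes. The exact two-sided permutation p was 0.1, the smallest that 3 against 3 allows (0.133 adjusted over the chromosomes). Most other chromosomes had the same p, among them chromosomes 7, 15 and 17, so the test does not single out chromosome 8. With genes of a mean level of 6 or more its median change was 0.17.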
